A study of Homo sapiens with 24 samples.

Results

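Transcript levels in HEK293T cells given a snaR-A plasmid were compared with those in HEK293T cells given a scramble plasmid, with 3 libraries per group. HEK293T is a human embryonic kidney line that carries the SV40 large T antigen, a viral protein that binds p53. In the snaR-A group, snaR-A was transcribed from a plasmid behind the U6 promoter, which RNA polymerase III reads, and in the scramble group the same promoter drove a scrambled snaR-A. Both groups were transfected with a lipid reagent and collected after 48 hours, so the cells were transiently transfected pools that kept their own snaR-A genes. The series holds 24 libraries, from HEK293T and from the lung carcinoma line A549, each with snaR-A, scramble, GFP (enhanced GFP, eGFP) or SF3B2 plasmids. The series was made to follow snaR-A and mRNA splicing, and gene levels are described here. The members are the 13362 genes, of 22667 tested and 60236 in the table, whose mean level over the 6 libraries was at least 2 CPM (counts scaled to library totals of 1e+06). At that limit, PRR16 lay just inside (mean 2.00043 CPM, log2 fold change -0.40) and PCGF3-AS1 just outside (mean 1.9988 CPM, log2 fold change -0.15). The account is about pathways other than interferon, proliferation, epithelial-mesenchymal transition, hypoxia and transcriptional readthrough.

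snaR-A is a small noncoding RNA of great apes and humans, derived from an Alu-related sequence and transcribed by RNA polymerase III. RNA polymerase III also makes tRNAs and 5S rRNA, and RNA polymerase I makes the other rRNAs, so an RNA polymerase III transcript shares its machinery with the parts of the translation apparatus. Ribosomal protein mRNAs are among the most abundant mRNAs of a dividing cell, and many begin with a run of pyrimidines, the 5′ terminal oligopyrimidine tract, through which their translation and stability follow mTOR and LARP1.

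The sequences of the 2 RNAs are shown as the study's pull-down probes give them. The plasmid inserts themselves are not given in the sources used here, so the transfected RNAs may differ from these probes, also at their ends. Both are written 5′ to 3′, with the terminal run of uridines, where RNA polymerase III stops, in capitals.
snaR-A: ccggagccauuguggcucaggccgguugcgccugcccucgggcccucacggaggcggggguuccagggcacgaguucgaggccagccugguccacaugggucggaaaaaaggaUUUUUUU
scramble: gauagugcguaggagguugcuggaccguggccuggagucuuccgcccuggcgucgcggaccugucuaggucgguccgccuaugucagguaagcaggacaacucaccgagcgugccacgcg
Each probe is 120 nucleotides long with 64.2% G and C, and the base counts differ by 1 C and 1 G. The snaR-A probe ends in 7 uridines and the scramble probe in 0, and the longest run of bases that they share is 6. Without its terminal uridines, the snaR-A probe matched 12 of 14 RefSeq SNAR-A genes exactly, over 113 bases, all on chromosome 19 between 47918429 and 50128522 (GRCh38.p14). The level of snaR-A itself was not analysed here, so the labels were not checked by it.

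The 6 libraries held between 209684269 and 252892995 estimated counts. A count of 3 in the total corresponds to 0.0119 to 0.0143 CPM, a limit that covers counting error only. Replicates correlated with a Pearson coefficient of at least 0.9948 within a group and at most 0.9909 between groups (log2 of CPM plus 1, over members), so the 6 libraries separated by plasmid. Of 11 genes listed as HEK293T markers, 9 were members, and TFAP2B was at or near 0 in all 6 libraries. LIN28B (169.7 against 20.4 CPM in A549 scramble libraries), HOXA10 (67.2 against 7.17) and NEFM (325 against 0.712) were higher in HEK293T. CDH2 was nearly equal in both lines (143 against 114 CPM), and INA (24.02 against 106) and SALL4 (5.06 against 7.17) were higher in A549, so these 3 do not mark HEK293T here. The 12 listed A549 markers summed to 6.73 to 9.36 CPM here against 16682 to 19989 CPM in the 3 A549 scramble libraries. Their most abundant gene, ALDH1A1, was the only member among them (log2 fold change -0.50). Among the libraries of the series outside this comparison, 2 stood apart. In HEK293T eGFP replicate 3 the A549 markers summed to 929 CPM, 4.85% of the median sum of the A549 libraries, with ALDH1A1 at 511 CPM against 4.18 and 3.90 CPM in eGFP replicates 1 and 2. In HEK293T SF3B2 replicate 3 they summed to 26.8 CPM (0.14%), against 6.96 and 7.30 CPM in SF3B2 replicates 1 and 2. The source of these reads was not tested, and eGFP and SF3B2 values are therefore given by library, replicate 3 last.

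Levels of all 4 plasmid groups bear on how the scramble comparison is read. Over the members, the median absolute log2 difference between group means was 0.155 between snaR-A and scramble, 0.110 between snaR-A and eGFP (0.115 without eGFP replicate 3) and 0.147 between snaR-A and SF3B2 (0.181 without SF3B2 replicate 3). The scramble group differed from eGFP by 0.234 (0.242 without eGFP replicate 3) and from SF3B2 by 0.213 (0.241 without SF3B2 replicate 3). Replicate pairs differed by 0.048 to 0.064 within snaR-A, 0.068 to 0.10 within scramble and up to 0.176 within SF3B2. The snaR-A group thus lay nearer to eGFP than to scramble by this measure, and eGFP and SF3B2 values are given beside the gene groups with the largest shares of calls. Untransfected cells were not analysed here, so a shift of the scramble group and a shift of the snaR-A group cannot be told apart.

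snaR-A and scramble libraries differed at many genes by small amounts. Of 22667 genes tested with edgeR's quasi-likelihood test, 8229 (36.3%) had a Benjamini-Hochberg adjusted p below 0.05, here named called, 4031 higher and 4198 lower with snaR-A. Among the 13362 members, 2671 (20%) were called higher and 3551 (26.6%) lower. The median absolute log2 fold change of the called members was 0.29, with quartiles at 0.21 and 0.41, and 84.7% of them lay within 0.5 of zero. A log2 fold change above 1 was called for 63 members and one below -1 for 29. In 8027 members (60.1%) the 3 snaR-A values did not overlap the 3 scramble values, higher in 3521 and lower in 4506. Without snaR-A replicate 2, 1653 members were called higher and 2366 lower. These shares are the background against which each gene group below is read. Beside each group, counts that moved by over 1.5 times and by at least 2 genes in another fit or without 1 library are given.

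The median log2 fold change of the members was -0.03. When counts were scaled by library size alone in place of TMM, all fold changes moved up by a median of 0.10 and the split became 4462 higher and 1858 lower, so a difference of that size in one direction depends on the scaling. Protein-coding members (11983) were called higher in 19.9% and lower in 27.2%, and lncRNA members (666) in 20.3% and 23.4%. Ranked by mean level, the top 3341 members (73.4 CPM and above) had 15.1% called higher and 30.9% lower, and the bottom 3341 members 20.1% and 23.8%. These are bulk libraries, in which fewer cells of a type and less RNA per cell cannot be told apart. A permutation of 3 against 3 libraries gives no p below 0.1, so single genes were judged by the fit over all genes.

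**Figure D1:**
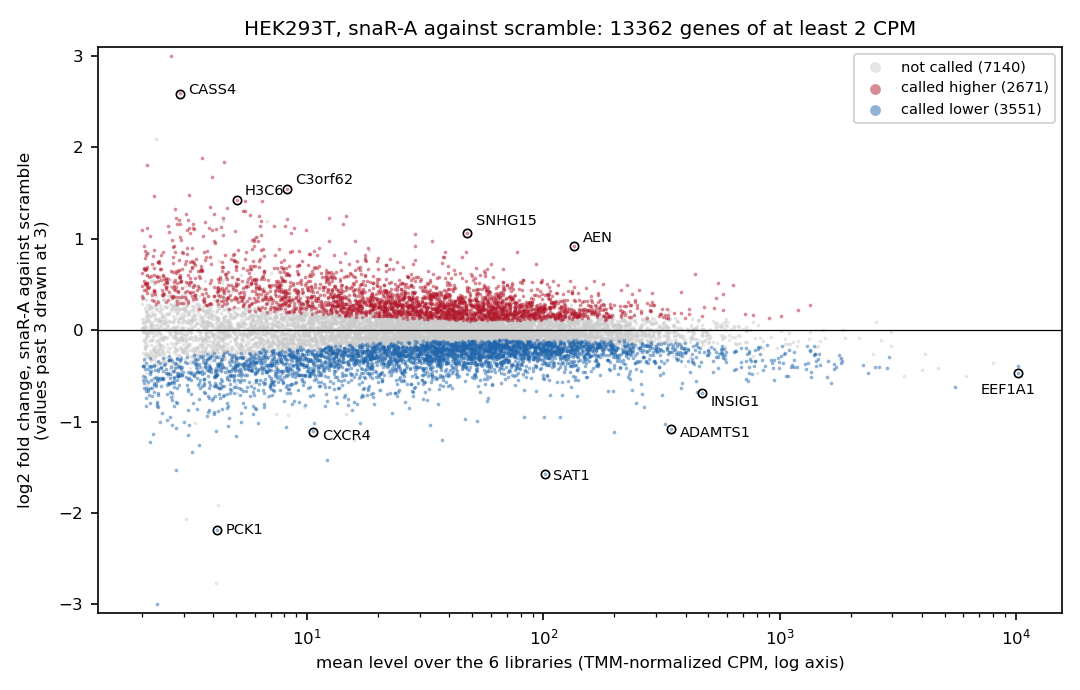
Log2 fold change of snaR-A over scramble (vertical axis) against mean level (horizontal axis, CPM on a log scale) for the 13362 members, with called genes in colour. Most of the 6222 called members lie within 0.5 of zero, and 63 called members lie above 1 and 29 below -1.

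The 12 genes with the highest fold changes among those eligible for naming were CASS4, XKR7, C3orf62, ZNF225-AS1, H3C6, EFCAB6, BEST1, PLA2G4C, ZIK1, INHBE, ZNF79 and H2AC6. Only called genes whose 3 snaR-A values did not overlap their 3 scramble values were eligible, here and for up to 3 genes of each group below, so a gap between the groups in the genes so chosen restates the choice. The 12 were of low to moderate abundance and spanned scaffold, channel, lipase, ligand, zinc finger and histone genes. CASS4, a Cas family scaffold of focal adhesions at chr20:56412112-56460387 (hg38), measured 0.91, 0.554 and 1.01 CPM with scramble and 4.597, 5.51 and 4.75 CPM with snaR-A, a log2 fold change of 2.59 ± 0.21, adjusted p = 0.000258 (edgeR, SE, n = 3). XKR7, a member of the XK-related family, measured 1.000, 0.823 and 0.981 CPM with scramble and 3.06, 3.89 and 2.85 CPM with snaR-A (1.81 ± 0.15, adjusted p = 0.000267). BEST1, a calcium-activated chloride channel of the bestrophin family, measured 2.37, 2.75 and 2.61 CPM with scramble and 6.03, 7.05 and 6.53 CPM with snaR-A (1.34 ± 0.10, adjusted p = 0.000218). PLA2G4C, a cytosolic phospholipase A2, measured 1.57, 1.57 and 1.57 CPM with scramble and 3.59, 4.46 and 3.72 CPM with snaR-A (1.32 ± 0.11, adjusted p = 0.000267). CASS4 and XKR7 had the lowest scramble levels of these 4 genes. CASS4, XKR7, ZNF225-AS1 and PLA2G4C were below 2 CPM in every scramble library and passed the member limit through the snaR-A libraries.

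Of the remaining genes of this set, INHBE, which encodes the inhibin beta E subunit of the TGF-beta ligand family at chr12:57452323-57459280, measured 3.64, 3.20 and 3.25 CPM with scramble and 7.64, 9.08 and 7.46 CPM with snaR-A (1.26 ± 0.10, adjusted p = 0.000267). EFCAB6, an EF-hand calcium-binding protein, measured 2.72, 3.12 and 3.12 CPM with scramble and 7.33, 8.29 and 8.22 CPM with snaR-A (1.41 ± 0.09). ZNF79, a zinc finger gene with one of the more abundant transcripts of the set, measured 8.60, 8.66 and 8.73 CPM with scramble and 20.2, 22.6 and 19.1 CPM with snaR-A (1.25 ± 0.07). The zinc finger gene ZIK1 (1.30 ± 0.09) and C3orf62, a gene without an established role (1.55 ± 0.10), were called as well. ZNF225-AS1 (1.46 ± 0.10) is an antisense RNA, and since the strand setting of the counting is not given in the sources used here, its reads and those of the opposite strand may not be told apart. H3C6 and H2AC6 return with the histone genes.

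The 12 lowest eligible genes were PCK1, SAT1, C11orf96, TCIM, PTCHD1-AS, MYO15B, FMN1, LINC00173, CXCR4, ADAMTS1, COL23A1 and ZNF710-AS1, with log2 fold changes from -2.19 to -1.04. They included a metabolic enzyme, a chemokine receptor, extracellular matrix genes and regulators of the actin cytoskeleton. ADAMTS1, a secreted metalloprotease of the matrix at chr21:26835755-26845409, was by far the most abundant of the 12 and measured 515, 453 and 451 CPM with scramble and 265, 186 and 219.8 CPM with snaR-A (-1.08 ± 0.12, adjusted p = 0.000546). CXCR4, the receptor of the chemokine CXCL12 at chr2:136114349-136119177, measured 15.8, 14.7 and 13.1 CPM with scramble and 8.12, 5.33 and 6.76 CPM with snaR-A (-1.11 ± 0.14, adjusted p = 0.000978). TCIM, a small regulator of transcription and immune response genes, measured 20.2, 16.3 and 16.3 CPM with scramble and 7.49, 5.03 and 7.26 CPM with snaR-A (-1.42 ± 0.15, adjusted p = 0.000552). In all 3 genes snaR-A replicate 2 was the lowest library. FMN1, a formin that nucleates actin filaments, measured 3.59, 4.34 and 4.998 CPM with scramble and 2.07, 2.06 and 1.69 CPM with snaR-A (-1.15 ± 0.14). COL23A1, a transmembrane collagen, measured 4.05, 3.62 and 3.64 CPM with scramble and 2.10, 1.69 and 1.60 CPM with snaR-A (-1.07 ± 0.12). The myosin gene MYO15B (-1.15 ± 0.16) and the noncoding RNAs PTCHD1-AS (-1.26 ± 0.18), LINC00173 (-1.14 ± 0.25) and ZNF710-AS1 (-1.04 ± 0.14) completed the set with C11orf96 (-1.53 ± 0.17), and the caution on antisense reads holds for both AS1 and AS genes. C11orf96 and LINC00173 were below 2 CPM in every snaR-A library and passed the member limit through the scramble libraries, as did PCK1. The snaR-A means of FMN1 and COL23A1 were also below 2 CPM. PCK1 and SAT1 are given with their pathways.

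**Figure D2:**
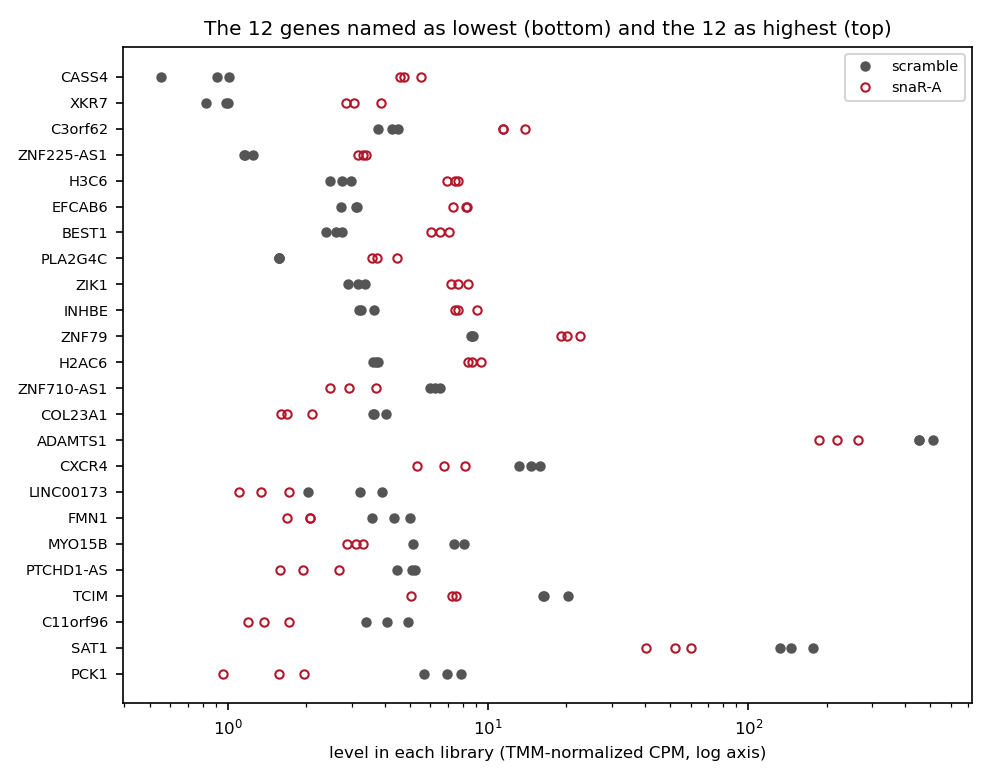
Level in each library (TMM-normalized CPM, log axis) of the 12 genes named as highest and the 12 as lowest, with filled points for scramble and open circles for snaR-A, 3 libraries each. Genes were chosen for groups that do not overlap, and their levels run from 0.554 CPM (CASS4, a scramble library) to 515 CPM (ADAMTS1, a scramble library).

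Levels with the other plasmids are given for 4 of these genes. With all 12 HEK293T libraries normalized together, CASS4 averaged 0.82 CPM with scramble and 4.89 with snaR-A, and measured 10.2, 12.3 and 9.97 with eGFP and 5.82, 6.28 and 5.85 with SF3B2. ADAMTS1 averaged 470.3 CPM with scramble and 220.5 with snaR-A, and measured 134, 108 and 126 with eGFP and 210.5, 208 and 197 with SF3B2. CXCR4 averaged 14.4 CPM with scramble and 6.65 with snaR-A, and measured 4.58, 3.89 and 4.29 with eGFP and 6.78, 7.28 and 6.49 with SF3B2. The 3 genes were chosen by their difference between snaR-A and scramble. INHBE, chosen in the same way, measured 3.62, 3.16 and 3.24 CPM with scramble, 7.54, 8.997 and 7.32 with snaR-A, 13.5, 16.1 and 12.1 with eGFP and 2.87, 2.98 and 4.08 with SF3B2. The comparisons share the scramble libraries, and no separate test was made of snaR-A against eGFP or SF3B2.

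Gene lists covering 33 pathways and complexes were then read against the background of 20% higher and 26.6% lower. The lists with the largest shares called higher were p53 target genes, ribosome biogenesis factors, histone genes, zinc finger genes and aminoacyl-tRNA synthetases. Those with the largest shares called lower were cytosolic ribosomal proteins, immediate early genes, nuclear-encoded oxidative phosphorylation subunits, sterol genes and Wnt, Notch and Hippo genes. The oxidative phosphorylation share fell to near the background of the same fit with library-size scaling alone or without snaR-A replicate 2. Several lists, among them NuRD, heat shock proteins and polyamine genes, had shares near or below the background in both directions.

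**Figure D3:**
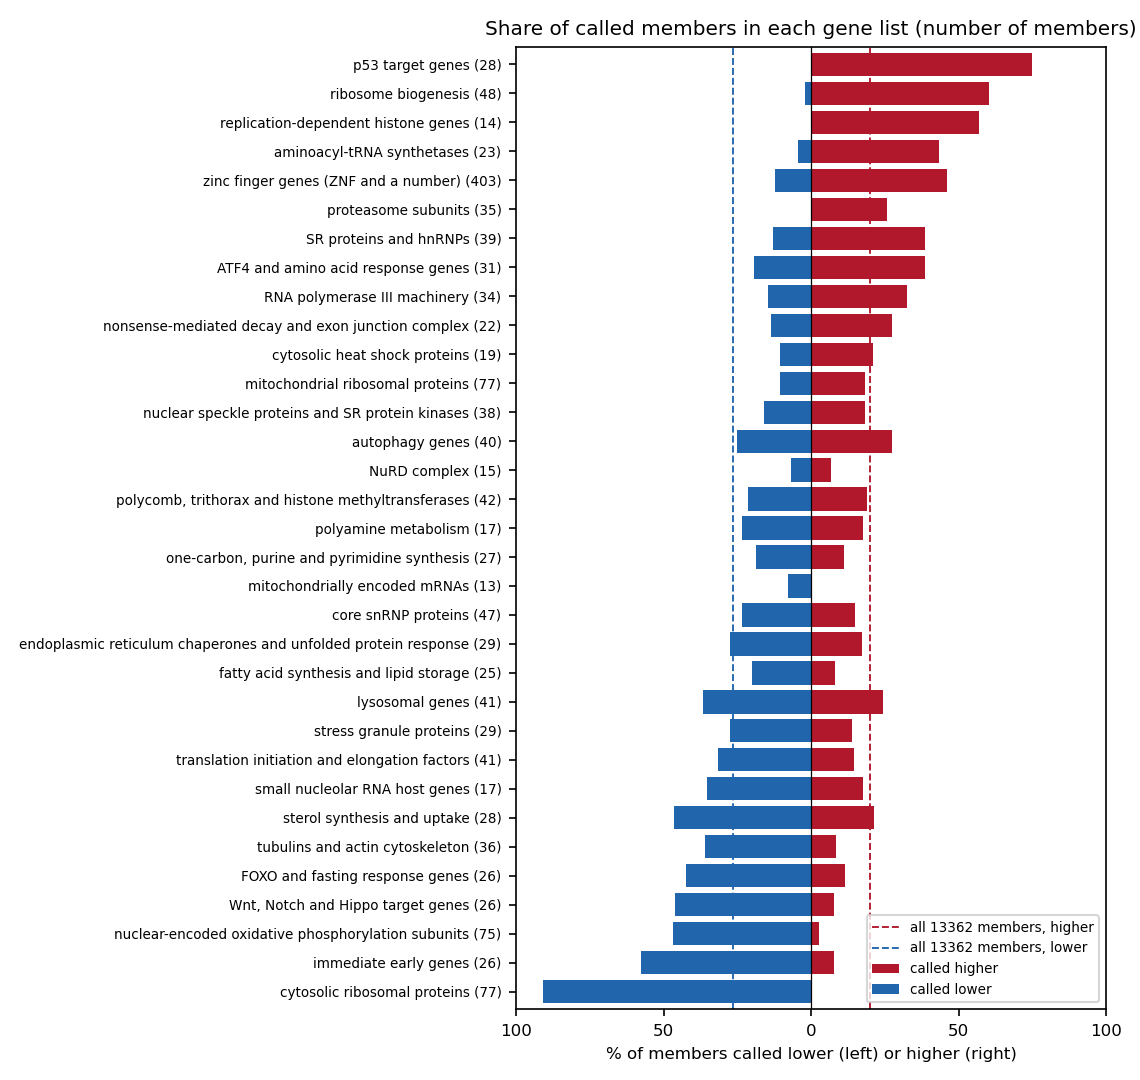
Percent of each list's members called higher (right, red) or lower (left, blue) with snaR-A against scramble, ordered by the difference of the shares, with the number of members in parentheses. Dashed lines mark the shares over all 13362 members (20% higher, 26.6% lower), and p53 targets and cytosolic ribosomal proteins lie at the opposite ends.

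p53 target genes had the largest share called higher of the lists. Of 28 members, 21 were called higher and 0 lower, and the median log2 fold change was 0.32 (0 lower in edgeR's quasi-likelihood test, 2 lower at an unadjusted p under 0.05, and 1 lower each by DESeq2 and edgeR's exact test). AEN, a nuclease of the apoptotic response at chr15:88621337-88632281, measured 96.3, 95.1 and 89.1 CPM with scramble and 176, 186 and 168 CPM with snaR-A (0.92 ± 0.05, adjusted p = 0.000156). PHLDA3, an inhibitor of AKT signalling, measured 9.59, 9.59 and 9.02 CPM with scramble and 15.8, 17.6 and 16.4 CPM with snaR-A (0.82 ± 0.06, adjusted p = 0.00025). PLK3, a stress-responsive kinase, measured 3.04, 2.81 and 2.59 CPM with scramble and 4.84, 5.33 and 4.55 CPM with snaR-A (0.80 ± 0.10, adjusted p = 0.000872). AEN was the most abundant of the 3. The E3 ligase gene MDM2 (0.39), the cell cycle inhibitor CDKN1A (0.23), the death receptor FAS (0.38), the apoptosis effector BAX (0.35) and the repair factor DDB2 (0.65) were called higher as well. CCNG1 (-0.13), TNFRSF10B (-0.11) and ZMAT3 (-0.05) had values below 0. With the 12 HEK293T libraries in 1 fit, 17 members were called higher. The median log2 ratio of the list to the scramble mean was 0.25, 0.33 and 0.29 in the snaR-A libraries, 0.39, 0.48 and 0.39 in the eGFP libraries and 0.24, 0.48 and 0.45 in the SF3B2 libraries.

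Cytosolic ribosomal protein mRNAs were lower almost throughout. Of 79 listed genes 77 were members, 70 were called lower and 0 higher. At an unadjusted p under 0.05, by DESeq2 and by edgeR's exact test, 72, 71 and 71 were lower and 0 higher. The median log2 fold change was -0.33, and single values ran from -0.54 to -0.08. Scaled by library size alone, 53 were called lower with a median of -0.23, and leaving out 1 library gave 53 to 75. Together the 77 mRNAs summed to 73375, 79271 and 66581 CPM with scramble and 58613, 55525 and 57625 CPM with snaR-A. The large subunit gene RPL27A measured 1136, 1246 and 991 CPM with scramble and 819.9, 761 and 739.8 CPM with snaR-A (-0.54 ± 0.09, adjusted p = 0.00216). RPL22, also of the large subunit, measured 850.3, 930.0 and 767 CPM with scramble and 621, 590.2 and 545 CPM with snaR-A (-0.54 ± 0.08, adjusted p = 0.00164). RPL41, which encodes the smallest ribosomal protein, measured 1612, 1776 and 1419 CPM with scramble and 1154, 1054 and 1159 CPM with snaR-A (-0.51 ± 0.09, adjusted p = 0.00272). Scramble replicate 2 was the highest library in all 3. The 7 members not called included RPS19 (-0.08), RPS29 (-0.09), RPS12 (-0.10) and RPS26 (-0.11). Against the same scramble mean, the list's median log2 ratio was -0.30, -0.36 and -0.32 with snaR-A, -0.48, -0.51 and -0.49 with eGFP and -0.51, -0.52 and -0.38 with SF3B2.

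Translation factor mRNAs were mixed, and those with ribosomal protein-like start sites lay at the low end. In that list 6 of 41 members were called higher and 13 lower (median -0.08). Of the translation factor list, the 6 higher calls became 3 without snaR-A replicate 2, snaR-A replicate 3 or scramble replicate 1 and 14 with library-size scaling alone. EEF1A1, which delivers aminoacyl-tRNA to the ribosome and was the most abundant factor, measured 11971, 13020.2 and 10681 CPM with scramble and 8897, 8243 and 8616 CPM with snaR-A (-0.47 ± 0.09, adjusted p = 0.00465). EIF4A2, an initiation helicase, measured 478, 479 and 429 CPM with scramble and 310.2, 297 and 324 CPM with snaR-A (-0.57 ± 0.06, adjusted p = 0.000459). EIF5, the GTPase activator of start codon selection, went the other way, at 334, 344 and 357 CPM with scramble and 497, 552 and 536 CPM with snaR-A (0.61 ± 0.05, adjusted p = 0.000305). EEF2 (-0.41), EEF1G (-0.47), EIF4B (-0.41) and TPT1 (-0.41) had negative log2 fold changes, whereas the 5 subunits of the exchange factor eIF2B ran from 0.07 (EIF2B5) to 0.30 (EIF2B1).

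The start sites of 7 ribosomal protein and elongation factor mRNAs are shown, 6 with the pyrimidine run and 1, EEF1B2, without it. Each window holds 10 bases before and 20 from the RefSeq start (GRCh38.p14), written 5′ to 3′ on the gene's strand, and capitals mark a C at the first transcribed base followed by at least 4 further C or T.
RPL27A, chr11:8682782-8682811 (plus strand): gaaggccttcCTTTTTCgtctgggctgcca
RPL22, chr1:6199576-6199605 (minus strand): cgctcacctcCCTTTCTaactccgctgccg
RPL41, chr12:56116623-56116652 (plus strand): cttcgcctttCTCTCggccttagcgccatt
RPS24, chr10:78033853-78033882 (plus strand): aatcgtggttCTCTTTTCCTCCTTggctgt
EEF1A1, chr6:73521013-73521042 (minus strand): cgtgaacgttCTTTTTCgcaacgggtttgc
EEF2, chr19:3985444-3985473 (minus strand): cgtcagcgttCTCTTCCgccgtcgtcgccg
EEF1B2, chr2:206159599-206159628 (plus strand): aagtggccccagcctcgaggccgggcgtct
The 6 with capitals were called lower, from -0.41 (EEF2) to -0.54 (RPL27A). EEF1B2, whose RefSeq start does not hold the run, is printed without capitals. Its fold change is not given here, so it is no contrast to the other 6.

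Such a start was found in 4.07% of all 35116 RefSeq promoter windows and in 543 (5.39%) of 10081 members with a window. Of those 543 members, 60 were called higher and 225 (41.4%) lower (median log2 fold change -0.13), and members without the start had a median of -0.03. Of 61 ribosomal protein members with a window, 41 (67.2%) held the run, and 37 of these were called lower. The median log2 fold change of those 41 was -0.33, and that of the ribosomal protein members without the run was -0.28. Outside the ribosomal proteins, 502 members held it, of which 60 were called higher and 188 (37.5%) lower (median -0.10). Among 33 translation factors with a window, the 9 with the run had 7 called lower and 0 higher (median -0.41), and those without had a median of 0.07. A match is a description of the sequence at the annotated start, and starts that the cells used were not measured.

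Ribosome biogenesis factors were called higher more often than lower, unlike the ribosomal proteins. In this list of nucleolar and processing factors, 29 of 48 members were called higher and 1 lower, with a median of 0.20. Of the biogenesis list, the 1 lower call became 4 without scramble replicate 3. RRN3, the initiation factor that brings RNA polymerase I to rDNA, measured 22.9, 21.6 and 23.6 CPM with scramble and 45.9, 46.5 and 41.8 CPM with snaR-A (0.98 ± 0.06, adjusted p = 0.000156), a call that was lost with all 12 HEK293T libraries in 1 fit. UTP14A, of the small subunit processome, measured 69.0, 69.7 and 71.6 CPM with scramble and 107, 123 and 118 CPM with snaR-A (0.73 ± 0.05, adjusted p = 0.000219). RRP9, a U3 snoRNP protein, measured 15.2, 15.3 and 14.9 CPM with scramble and 21.9, 23.4 and 23.4 CPM with snaR-A (0.60 ± 0.05, adjusted p = 0.000267). UTP14A was the most abundant of the 3. POLR1A, the largest RNA polymerase I subunit (0.43), RRP12 (0.54), UTP20 (0.51) and NOP58 (0.40) were also positive, whereas NPM1 (-0.17) and GNL3 (-0.19) had negative values. MYC, which drives many of these genes in growing cells, measured 159, 166 and 151 CPM with scramble and 109.5, 96.9 and 103 CPM with snaR-A (-0.62 ± 0.06, adjusted p = 0.000336), so its mRNA was lower while 29 biogenesis factors were higher. The list's median log2 ratio to the scramble mean was 0.12, 0.22 and 0.20 with snaR-A, 0.33, 0.32 and 0.28 with eGFP and 0.29, 0.25 and 0.22 with SF3B2.

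The hexamer CACGTG, the E-box that MYC and related factors bind, is shown in capitals in 2 of these promoters, since the biogenesis members that hold it had the larger fold changes.
RRP9, chr3:51941892-51941921 (minus strand): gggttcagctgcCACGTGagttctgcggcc
UTP14A, chrX:129905914-129905943 (plus strand): accttgggcCACGTGgaaaccaggggccag
From 250 bases before to 50 after the start, CACGTG was present in 7.26% of all windows and 10.2% of members. It was present in 13 of 41 biogenesis members with a window (31.7%), and all 13 were called higher (median 0.34), against a median of 0.12 for those without it. Outside the list, 243 (24%) of 1013 members with CACGTG were called higher and 207 (20.4%) lower. Their median log2 fold change was 0.01, against -0.04 for those without it.

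The RNA polymerase III machinery, which would transcribe the U6 cassettes of the snaR-A and scramble plasmids alike, had 11 of 34 members called higher and 5 lower (median 0.04). Of the RNA polymerase III list, the 11 higher calls became 18 with library-size scaling alone. The 5 lower calls became 2 with library-size scaling alone. POLR3C, a subunit that helps the enzyme open promoters, measured 54.2, 56.6 and 55.1 CPM with scramble and 95.6, 107 and 97.5 CPM with snaR-A (0.85 ± 0.05, adjusted p = 0.000156). BRF2, the initiation factor used at U6-type promoters, measured 12.6, 13.03 and 11.6 CPM with scramble and 18.4, 19.6 and 18.2 CPM with snaR-A (0.59 ± 0.06, adjusted p = 0.000538). Of the 2, POLR3C was the more abundant. With all 12 HEK293T libraries normalized together, POLR3C averaged 55.0 CPM with scramble and 98.6 with snaR-A. It measured 107.5, 112.1 and 98.5 CPM with eGFP and 97.8, 85.8 and 84.5 CPM with SF3B2. BRF2 averaged 12.3 CPM with scramble and 18.5 with snaR-A, and measured 19.5, 21.6 and 17.8 with eGFP and 10.8, 13.3 and 15.4 with SF3B2. SNAPC4, the DNA-binding subunit of the snRNA activating complex (0.47), MEPCE, the 7SK capping enzyme (0.40), and TBP (0.35) were positive, whereas SNAPC3 (-0.31) and ZNF143 (-0.24) were negative. SSB, which encodes La, the protein that binds terminal uridines, stood at -0.03 and the repressor MAF1 at 0.03, neither called.

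Replication-dependent histone genes, whose mRNAs normally lack poly(A) tails, were called higher in some of the members measured. Only 14 of 62 listed genes were members of these poly(A)-selected libraries, and 8 of them were called higher and 0 lower, also 0 at an unadjusted p under 0.05 and by DESeq2 and edgeR's exact test (median 0.51). H3C6, an H3 gene at chr6:26224199-26227473, measured 2.75, 2.46 and 2.97 CPM with scramble and 6.93, 7.45 and 7.63 CPM with snaR-A (1.43 ± 0.10, adjusted p = 0.000179). H2AC6, an H2A gene, measured 3.78, 3.72 and 3.602 CPM with scramble and 8.64, 9.37 and 8.34 CPM with snaR-A (1.25 ± 0.08, adjusted p = 0.000173). H4C14 measured 19.6, 19.3 and 16.9 CPM with scramble and 40.1, 38.4 and 37.5 CPM with snaR-A (1.06 ± 0.06, adjusted p = 0.000156), but 98.6% of its 31-base words occur in other genes, so its share of reads is uncertain. H4C14 was the most abundant of the 3. Of the histone list, the 8 higher calls became 5 with all 12 HEK293T libraries in 1 fit. The list's median log2 ratio to the scramble mean was 0.73, 0.33 and 0.32 with snaR-A, 0.41, 0.63 and 0.29 with eGFP and -0.48, -0.20 and 0.09 with SF3B2, so 2 of the 3 SF3B2 libraries lay below 0, while all snaR-A and eGFP libraries lay above it. H2BC21 (-0.24) and H4C15 (-0.18) had negative values.

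Zinc finger genes (symbol ZNF and a number, protein coding), most of them DNA-binding repressors with C2H2 fingers, formed the largest group with an excess of higher calls. Of 403 members, 186 (46.2%) were called higher and 49 (12.2%) lower, with a median of 0.16. Of the zinc finger list, the 49 lower calls became 20 with library-size scaling alone and 31 without snaR-A replicate 2. On chromosome 19, which holds most clusters of these genes, 99 of 188 were called higher and 7 lower (median 0.23), and elsewhere 87 of 215 and 42 (median 0.12). Other members on chromosome 19 had 127 of 654 called higher and 173 lower, close to the background. ZNF425 measured 4.37, 3.65 and 3.74 CPM with scramble and 7.96, 9.35 and 8.66 CPM with snaR-A (1.14 ± 0.10, adjusted p = 0.000302). ZNF416 measured 5.82, 5.35 and 5.38 CPM with scramble and 11.7, 12.2 and 10.8 CPM with snaR-A (1.07 ± 0.08, adjusted p = 0.000218). Both were of low abundance. Over the 403 genes, the median log2 ratio to the scramble mean was 0.13, 0.17 and 0.13 with snaR-A, 0.22, 0.19 and 0.16 with eGFP and 0.17, 0.12 and 0.11 with SF3B2, so the other plasmids lay on the same side of scramble as snaR-A. Paralogous zinc finger genes share sequence. ZNF425 and ZNF416 shared 1.70% and 1.43% of their 31-base words with other genes, which describes these genes only. The part of shared sequence in the calls of the other zinc finger members was not tested.

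Genes for amino acid supply and tRNA charging were partly higher. Of 23 aminoacyl-tRNA synthetase and scaffold members, 10 were called higher and 1 lower (median 0.10). Of the synthetase list, the 10 higher calls became 16 with library-size scaling alone. AIMP2, a scaffold of the multi-synthetase complex, measured 36.2, 37.0 and 35.8 CPM with scramble and 51.6, 55.4 and 55.0 CPM with snaR-A (0.57 ± 0.04, adjusted p = 0.000218). CARS1, which charges cysteine tRNA, measured 53.6, 57.3 and 54.7 CPM with scramble and 74.8, 85.2 and 78.6 CPM with snaR-A (0.53 ± 0.05, adjusted p = 0.00045). WARS1, which charges tryptophan tRNA, measured 115, 119.7 and 105 CPM with scramble and 143, 152 and 156 CPM with snaR-A (0.41 ± 0.06, adjusted p = 0.00143). WARS1 was the most abundant of the 3, and QARS1 (-0.26) was the one called lower. For the synthetases the median log2 ratio to the scramble mean was 0.07, 0.09 and 0.08 with snaR-A, 0.07, 0.11 and 0.09 with eGFP and 0.09, 0.09 and 0.00 with SF3B2. Among ATF4 and amino acid response genes, 12 of 31 members were called higher and 6 lower (median 0.06). CHAC1, which degrades glutathione, measured 2.55, 2.97 and 2.80 CPM with scramble and 4.15, 4.42 and 4.54 CPM with snaR-A (0.66 ± 0.09, adjusted p = 0.00142), and the cystine transporter subunits SLC7A11 (0.48) and SLC3A2 (0.54) had positive values. ATF4 itself (-0.20), the serine pathway enzyme PHGDH (-0.05) and asparagine synthetase, ASNS (-0.14), had negative values, and the lipoprotein receptor gene VLDLR measured 34.2, 32.5 and 32.6 CPM with scramble and 24.1, 19.5 and 22.6 CPM with snaR-A (-0.58 ± 0.07, adjusted p = 0.000902). INHBE, given above, is on the same list, so its members did not move together.

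The 8-base motif TGATGNAA, the composite element that ATF4 binds with its partners, was searched on both strands of the promoter windows, and 2 matches are printed in capitals as they lie on the gene's strand.
CARS1, chr11:3057407-3057436 (minus strand): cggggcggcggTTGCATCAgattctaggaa
CHAC1, chr15:40953251-40953280 (plus strand): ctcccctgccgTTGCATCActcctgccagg
It occurred in 3.62% of all windows and 1.54% of members. On the ATF4 list 6 of 25 members with a window held it (3 called higher and 1 lower), and among the synthetases 6 of 19 (31.6%, 3 called higher and 0 lower). Outside both lists, 144 members held it, of which 24 (16.7%) were called higher and 36 (25%) lower, and their median log2 fold change was -0.05, against -0.03 for those without it.

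Immediate early genes, which serum and growth factors induce within minutes, were called lower more often than higher. In that list 2 of 26 members were called higher and 15 lower, of 38 listed (median -0.24). FOS measured 4.90, 3.99 and 4.04 CPM with scramble and 3.34, 2.30 and 2.85 CPM with snaR-A (-0.61 ± 0.15, adjusted p = 0.0134), a call lost without scramble replicate 1. JUN, its partner in AP-1, measured 329.6, 319.6 and 280.3 CPM with scramble and 218, 193 and 207 CPM with snaR-A (-0.59 ± 0.07, adjusted p = 0.000717). The phosphatase genes DUSP1 (-0.41), DUSP4 (-0.40) and DUSP5 (-0.39), which inactivate MAP kinases, were negative, whereas EGR1 (-0.03), CCN2 (0.02) and FOSB (0.00) were near 0 and IER2 (0.14) and KLF10 (0.17) positive. Of the immediate early list, the 2 higher calls became 0 without snaR-A replicate 2 or with all HEK293T libraries but eGFP replicate 3 in 1 fit and 4 with library-size scaling alone. The 15 lower calls became 9 without scramble replicate 1 or with library-size scaling alone. The list's median log2 ratio to the scramble mean was -0.21, -0.26 and -0.24 with snaR-A, -0.20, -0.09 and 0.06 with eGFP and -0.28, -0.23 and -0.21 with SF3B2. The one value above 0 was that of eGFP replicate 3, the library with A549 marker transcripts.

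Wnt, Notch and Hippo genes had 12 of 26 members called lower and 2 higher (median -0.13). HES1, the main transcriptional target of Notch, measured 77.4, 76.3 and 63.8 CPM with scramble and 44.9, 39.8 and 42.5 CPM with snaR-A (-0.77 ± 0.08, adjusted p = 0.000427). The ligand gene DLL1 measured 15.9, 12.97 and 15.9 CPM with scramble and 10.8, 8.67 and 9.68 CPM with snaR-A (-0.62 ± 0.11, adjusted p = 0.00296). JAG1, another ligand, measured 23.7, 21.2 and 21.2 CPM with scramble and 16.05, 13.5 and 13.7 CPM with snaR-A (-0.61 ± 0.08, adjusted p = 0.00103). Its call was lost with all 12 HEK293T libraries in 1 fit (log2 fold change -0.63, adjusted p = 0.0623) but not when eGFP replicate 3 was left out of that fit (-0.63, adjusted p = 0.000653), and JAG1 measured 13.5, 12.2 and 26.5 CPM in the eGFP libraries. The ligands JAG2 (-0.31) and DLL3 (-0.35) and the targets HES4 (-0.48) and NRARP (-0.48) were also negative, whereas the receptor NOTCH1 was positive (0.21, not called). Of the other arms, the Wnt feedback gene ZNRF3 (-0.27) and the Hippo genes TEAD2 (-0.23) and LATS2 (-0.17) were called lower, and the Hippo genes AJUBA (0.33) and AMOTL2 (0.23) were the 2 called higher. The Wnt targets AXIN2 (0.03) and LEF1 (-0.06) and the Hippo genes YAP1 (-0.09) and TEAD1 (-0.03) lay within 0.1 of 0 and were not called. Against the scramble mean, the median log2 ratio of this list was -0.10, -0.12 and -0.23 with snaR-A, -0.22, -0.24 and -0.22 with eGFP and -0.14, -0.20 and -0.17 with SF3B2, below 0 in every library. Of the Wnt, Notch and Hippo list, the 2 higher calls became 4 with DESeq2 and 5 with library-size scaling alone.

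Sterol synthesis and uptake genes, targets of SREBP2, had 13 of 28 members called lower and 6 higher (median -0.12). MSMO1, a sterol demethylation enzyme, measured 183, 182 and 155 CPM with scramble and 115, 98.7 and 101 CPM with snaR-A (-0.72 ± 0.08, adjusted p = 0.000569). IDI1, which isomerizes the isoprenoid unit, measured 396, 414 and 370.2 CPM with scramble and 262, 224 and 234 CPM with snaR-A (-0.71 ± 0.07, adjusted p = 0.00041). INSIG1, the sterol-sensing anchor of SREBP, measured 606, 601 and 538 CPM with scramble and 398, 339 and 345 CPM with snaR-A (-0.69 ± 0.08, adjusted p = 0.000565). The squalene epoxidase gene SQLE (-0.68) was called lower as well. The list was not uniform: the LDL receptor (-0.36) and HMGCS1 (-0.44) were negative, while the mevalonate kinase gene MVK (0.46) and TM7SF2 (0.32) were positive. The median log2 ratio was -0.12, -0.14 and -0.13 with snaR-A, -0.26, -0.27 and -0.29 with eGFP and -0.41, -0.27 and -0.17 with SF3B2. In fatty acid synthesis and lipid storage, 2 of 25 members were called higher and 5 lower (median -0.01). Of the fatty acid list, the 2 higher calls became 4 with library-size scaling alone. HILPDA, which inhibits lipolysis at lipid droplets and is also a hypoxia-inducible gene, measured 74.9, 72.3 and 61.8 CPM with scramble and 40.1, 30.9 and 33.8 CPM with snaR-A (-1.0 ± 0.10, adjusted p = 0.000459). The acyl-CoA ligase gene ACSL4 (-0.36 ± 0.05) and the elongase gene ELOVL5 (-0.30 ± 0.04) were called lower, and FASN (0.08) and ACACA (-0.01) lay near 0.

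FOXO and fasting response genes had 11 of 26 members called lower and 3 higher (median -0.11). Of the FOXO list, the 11 lower calls became 6 without snaR-A replicate 2 and 7 without scramble replicate 1 or with library-size scaling alone. PCK1, the rate-limiting enzyme of gluconeogenesis at chr20:57561080-57568121, measured 7.84, 6.95 and 5.66 CPM with scramble and 1.96, 0.956 and 1.57 CPM with snaR-A (-2.19 ± 0.24, adjusted p = 0.000569), the lowest fold change of all eligible genes. ARRDC4, an arrestin that restrains glucose uptake, measured 105, 104 and 94.3 CPM with scramble and 71.6, 60.7 and 60.0 CPM with snaR-A (-0.65 ± 0.07, adjusted p = 0.000602). SESN3, a FOXO target that restrains mTORC1, measured 155, 162 and 163 CPM with scramble and 117, 108 and 111 CPM with snaR-A (-0.51 ± 0.04, adjusted p = 0.0003). PCK1 passed the member limit through the scramble libraries, and the other 2 were abundant in both groups. INSR (-0.34) and IRS2 (-0.29) were negative, PPARGC1A (0.46) and PIK3IP1 (0.43) positive, and TXNIP stood at -0.10. In polyamine metabolism 3 of 17 members were called higher and 4 lower (median -0.03). Of the polyamine list, the 3 higher calls became 1 without snaR-A replicate 2 or scramble replicate 1 and 5 with library-size scaling alone. SAT1, which acetylates spermidine and spermine for export and breakdown, measured 177, 146 and 133 CPM with scramble and 60.2, 40.3 and 52.5 CPM with snaR-A (-1.57 ± 0.15, adjusted p = 0.0004). The spermine synthase gene SMS (-0.30 ± 0.05) and DHPS, which starts the hypusine modification of eIF5A (-0.45 ± 0.05), were called lower, and the synthesis genes ODC1 and SRM both stood at 0.27.

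Nuclear genes for oxidative phosphorylation were called lower more often than higher, by small amounts. Of 75 members, 35 were called lower and 2 higher (median -0.14). Of the oxidative phosphorylation list, the 35 lower calls became 11 with library-size scaling alone, 14 without snaR-A replicate 2, 20 without scramble replicate 1, 22 with all HEK293T libraries but eGFP replicate 3 in 1 fit and 23 with all 12 HEK293T libraries in 1 fit. Over all 13362 members, 1858 were called lower with library-size scaling alone and 2366 without snaR-A replicate 2. In those fits the list's share called lower lay near the share over all members. NDUFA1, a complex I subunit, measured 160.3, 173 and 146 CPM with scramble and 123, 117 and 115 CPM with snaR-A (-0.43 ± 0.06, adjusted p = 0.00147). COX7B, of complex IV, measured 157, 171 and 151 CPM with scramble and 125, 117 and 116 CPM with snaR-A (-0.42 ± 0.06, adjusted p = 0.0011). UQCRB, of complex III, measured 234, 266 and 227 CPM with scramble and 183, 179 and 182 CPM with snaR-A (-0.42 ± 0.06, adjusted p = 0.00146). The list's median log2 ratio to the scramble mean was -0.15, -0.16 and -0.15 with snaR-A, -0.30, -0.28 and -0.31 with eGFP and -0.39, -0.29 and -0.17 with SF3B2, with every eGFP and SF3B2 library further below 0 than the snaR-A libraries. Of the 13 mRNAs encoded in mitochondrial DNA, 1 was called lower and 0 higher, also 0 at an unadjusted p under 0.05 and by DESeq2 and edgeR's exact test, although the median was -0.36. Of the mitochondrially encoded list, the 1 lower call became 3 with edgeR's exact test or with no low-count filter and 9 without scramble replicate 2. The list's median log2 ratio to the scramble mean was 0.09, -0.44 and 0.37 in the scramble libraries themselves and -0.58, -0.32 and -0.10 with snaR-A, so that scramble replicate 2 lay with the snaR-A libraries. MT-ND3 measured 935, 788 and 929.6 CPM with scramble and 679.8, 666 and 671 CPM with snaR-A (-0.40 ± 0.07, adjusted p = 0.00354), a call lost with all 12 libraries in 1 fit, and MT-ND4 had a log2 fold change of -0.50 with an adjusted p of 0.112. Mitochondrial ribosomal proteins, in contrast to the cytosolic ones, had 14 of 77 called higher and 8 lower (median 0.01). MRPL1 (0.65 ± 0.06), MRPL15 (0.37 ± 0.06) and MRPS2 (0.36 ± 0.08, lost with all 12 libraries in 1 fit) were called higher. Of the mitochondrial ribosomal protein list, the 14 higher calls became 7 without snaR-A replicate 2, snaR-A replicate 3 or scramble replicate 1, with all 12 HEK293T libraries in 1 fit or with all HEK293T libraries but eGFP replicate 3 in 1 fit, 9 without scramble replicate 3 and 31 with library-size scaling alone. The 8 lower calls became 2 with library-size scaling alone, 4 without scramble replicate 1, 5 without snaR-A replicate 2, snaR-A replicate 3 or scramble replicate 2 or with all HEK293T libraries but eGFP replicate 3 in 1 fit and 19 without scramble replicate 3.

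Because the series was built around splicing, the RNA processing lists were read separately. Core snRNP proteins were mixed: 7 of 47 members were called higher and 11 lower (median -0.01). USP39, of the tri-snRNP, measured 141, 142 and 132 CPM with scramble and 179, 185 and 173 CPM with snaR-A (0.37 ± 0.05, adjusted p = 0.000839), and CD2BP2, which binds the U5 particle, measured 95.3, 101 and 97.5 CPM with scramble and 112, 128 and 121 CPM with snaR-A (0.29 ± 0.05, adjusted p = 0.00351). LSM8, of the U6 ring, measured 89.2, 98.8 and 87.2 CPM with scramble and 75.2, 71.7 and 70.2 CPM with snaR-A (-0.34 ± 0.05, adjusted p = 0.00217), a call lost with all 12 libraries in 1 fit. The core protein genes SNRPG (-0.29), SNRPD2 (-0.26) and SF3B6 (-0.27) had negative values and PRPF3 (0.27) and PRPF6 (0.23) positive ones. Of the core snRNP list, the 7 higher calls became 16 with library-size scaling alone. The 11 lower calls became 4 with library-size scaling alone, 5 with all 12 HEK293T libraries in 1 fit or with all HEK293T libraries but eGFP replicate 3 in 1 fit, 6 without snaR-A replicate 2 and 7 without scramble replicate 1. Among SR proteins and hnRNPs 15 of 39 members were called higher and 5 lower (median 0.03). PTBP2, a splicing repressor of neuronal exons, measured 66.1, 66.4 and 68.4 CPM with scramble and 91.1, 102 and 99.7 CPM with snaR-A (0.55 ± 0.05, adjusted p = 0.000334). SRSF6 measured 218, 206 and 222 CPM with scramble and 263, 304 and 307 CPM with snaR-A (0.44 ± 0.07, adjusted p = 0.00174). HNRNPM measured 318, 317 and 343 CPM with scramble and 403, 453 and 451 CPM with snaR-A (0.42 ± 0.06, adjusted p = 0.00147). Of the SR protein genes, SRSF1 (0.39), SRSF2 (0.31), SRSF3 (0.25), SRSF7 (0.30) and SRSF10 (0.28) were all positive, and SRSF4 (-0.14) and SRSF5 (-0.15) negative. HNRNPA1 (-0.30) and HNRNPL (-0.35) were negative. In the 12-library scale HNRNPM averaged 324 CPM with scramble and 429.8 with snaR-A, and measured 477, 517 and 499 with eGFP and 699.6, 557 and 509 with SF3B2. Of the SR protein and hnRNP list, the 5 lower calls became 2 with library-size scaling alone, 3 without scramble replicate 1 or with all HEK293T libraries but eGFP replicate 3 in 1 fit and 8 without scramble replicate 3.

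Nuclear speckle proteins and SR protein kinases had 7 of 38 members called higher and 6 lower (median 0.06), below the background in both directions. Of the speckle list, the 7 higher calls became 3 with all 12 HEK293T libraries in 1 fit or with all HEK293T libraries but eGFP replicate 3 in 1 fit, 4 without snaR-A replicate 2, snaR-A replicate 3 or scramble replicate 1 and 14 with library-size scaling alone. The 6 lower calls became 1 without scramble replicate 1, 2 with library-size scaling alone and 3 without snaR-A replicate 2 or scramble replicate 3 or with all HEK293T libraries but eGFP replicate 3 in 1 fit. CLK2, a kinase of SR proteins, measured 37.8, 28.2 and 37.8 CPM with scramble and 25.9, 14.9 and 23.98 CPM with snaR-A (-0.68 ± 0.19, adjusted p = 0.0247), and its call was lost without scramble replicate 1 or 3. PNISR, a speckle protein, was called lower (-0.42 ± 0.09) and SCAF1 higher (0.36 ± 0.05), and the scaffold genes SON (0.02) and SRRM2 (-0.28) had values on either side of 0. Nonsense-mediated decay and exon junction genes had 6 of 22 called higher and 3 lower (median 0.07). SMG6, the endonuclease of that pathway, measured 34.6, 35.4 and 36.0 CPM with scramble and 47.4, 51.1 and 47.0 CPM with snaR-A (0.46 ± 0.04, adjusted p = 0.000412). DHX34 (0.36 ± 0.07) and MAGOHB (0.27 ± 0.07) were called higher, the last not with all 12 libraries in 1 fit or without any 1 of snaR-A replicates 2 and 3 and scramble replicates 1 and 3. UPF1 stood at -0.01. Of the nonsense-mediated decay list, the 6 higher calls became 3 with all 12 HEK293T libraries in 1 fit or with all HEK293T libraries but eGFP replicate 3 in 1 fit and 11 with library-size scaling alone. The 3 lower calls became 0 with library-size scaling alone and 1 without snaR-A replicate 2, snaR-A replicate 3 or scramble replicate 1, with all 12 HEK293T libraries in 1 fit, with the replicate number as a block or with all HEK293T libraries but eGFP replicate 3 in 1 fit. Stress granule proteins had 4 of 29 called higher and 8 lower (median -0.04), with PABPC1 (-0.40 ± 0.06), FXR1 (-0.35 ± 0.05) and TIAL1 (-0.33 ± 0.06) lower and G3BP1 at 0.18. Of the stress granule list, the 4 higher calls became 1 with all 12 HEK293T libraries in 1 fit or with all HEK293T libraries but eGFP replicate 3 in 1 fit, 2 without snaR-A replicate 2, snaR-A replicate 3 or scramble replicate 1 and 10 with library-size scaling alone. The 8 lower calls became 4 without snaR-A replicate 2, with library-size scaling alone or with all HEK293T libraries but eGFP replicate 3 in 1 fit and 5 without snaR-A replicate 3 or scramble replicate 1, with no low-count filter or with the replicate number as a block.

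Host genes of small nucleolar RNAs, most of whose spliced exons are noncoding, split in both directions. Of 28 listed, 17 were members, with 3 called higher and 6 lower (median -0.13). Of the host gene list, the 6 lower calls became 3 without snaR-A replicate 2 or scramble replicate 1, with library-size scaling alone or with all HEK293T libraries but eGFP replicate 3 in 1 fit. SNHG15 measured 32.0, 31.4 and 29.3 CPM with scramble and 62.3, 68.7 and 62.4 CPM with snaR-A (1.06 ± 0.05, adjusted p = 0.000156). SNHG17 measured 12.96, 10.01 and 14.2 CPM with scramble and 18.2, 19.2 and 20.97 CPM with snaR-A (0.65 ± 0.12, adjusted p = 0.00386). SNHG3 measured 70.4, 66.8 and 68.0 CPM with scramble and 47.8, 43.8 and 49.7 CPM with snaR-A (-0.54 ± 0.05, adjusted p = 0.00041). The first 2 were higher and the third lower, and SNHG1 (-0.51) and GAS5 (-0.28) had negative values.

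Protein quality control lists moved little. Proteasome subunits had 9 of 35 called higher and 0 lower (1 lower at an unadjusted p under 0.05, and 1 each by DESeq2 and edgeR's exact test), with a median of 0.08. The regulatory particle genes PSMD11 (0.31 ± 0.04), PSMC5 (0.31 ± 0.05) and ADRM1 (0.27 ± 0.06) led, and PSMD11 measured 132, 127 and 130.2 CPM with scramble and 155, 162 and 164 CPM with snaR-A. Of the proteasome list, the 9 higher calls became 5 without snaR-A replicate 2, 14 without scramble replicate 2 and 24 with library-size scaling alone. Cytosolic heat shock genes had 4 of 19 higher and 2 lower (median 0.02). The HSP40 gene DNAJA1 measured 243, 251 and 254 CPM with scramble and 305, 335 and 347 CPM with snaR-A (0.40 ± 0.06, adjusted p = 0.00121), HSPH1 had 0.33 ± 0.05, and HSPB8 (-0.38 ± 0.11) lost its call with library-size scaling alone, with all 12 libraries in 1 fit and without snaR-A replicate 2 or 3 or scramble replicate 1 or 2. Endoplasmic reticulum chaperones and unfolded protein response genes had 5 of 29 higher and 8 lower (median -0.06). HSPA5, the main chaperone of that compartment, measured 943, 858 and 823 CPM with scramble and 733, 628 and 724 CPM with snaR-A (-0.33 ± 0.08, adjusted p = 0.0107), DNAJB9 had -0.36 ± 0.08, XBP1 stood at 0.04 and DDIT3 at 0.37. The stress sensor gene ERN1 (-0.28 ± 0.08) was not called with library-size scaling alone or without snaR-A replicate 2 or 3 or scramble replicate 1. Of the heat shock list, the 4 higher calls became 10 with library-size scaling alone. Of the endoplasmic reticulum list, the 5 higher calls became 2 with all 12 HEK293T libraries in 1 fit and 3 without snaR-A replicate 2, snaR-A replicate 3 or scramble replicate 1 or with all HEK293T libraries but eGFP replicate 3 in 1 fit. The 8 lower calls became 2 without snaR-A replicate 2 or scramble replicate 1 or with library-size scaling alone and 5 without snaR-A replicate 3 or with the replicate number as a block.

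Autophagy genes had 11 of 40 called higher and 10 lower (median -0.02). Of the autophagy list, the 11 higher calls became 5 without snaR-A replicate 2, with all 12 HEK293T libraries in 1 fit or with all HEK293T libraries but eGFP replicate 3 in 1 fit, 7 without snaR-A replicate 3 or scramble replicate 1 or with the replicate number as a block and 17 with library-size scaling alone. The 10 lower calls became 4 with library-size scaling alone and 6 without snaR-A replicate 2 or scramble replicate 1. WIPI1, a phosphoinositide-binding factor of the early autophagosome, measured 13.2, 13.6 and 11.7 CPM with scramble and 8.30, 6.93 and 8.09 CPM with snaR-A (-0.72 ± 0.09, adjusted p = 0.000902). AMBRA1 (0.45 ± 0.06) and TECPR1 (0.43 ± 0.05) were called higher, and the marker genes SQSTM1 (0.11) and MAP1LC3B (-0.03) lay near 0. Lysosomal genes had 10 of 41 higher and 15 lower (median -0.09). Of the lysosomal list, the 10 higher calls became 5 without snaR-A replicate 2. The 15 lower calls became 8 with library-size scaling alone. ATP6V0A1, of the proton pump, was called higher (0.44 ± 0.06), and NEU1 (0.87 ± 0.21) was called higher but not without snaR-A replicate 2. The scramble mean of NEU1 was 1.58 CPM, so it passed the member limit of 2 CPM through the snaR-A libraries. The hydrolase genes CTSB (-0.34), PSAP (-0.33), GLA (-0.34) and IDS (-0.36) had negative values.

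Chromatin, nucleotide and cytoskeleton lists completed the survey. NuRD had 1 of 15 members called higher (MTA2, 0.19 ± 0.04, not without snaR-A replicate 2) and 1 lower (RBBP7, -0.25 ± 0.04), far below the background. Of the NuRD list, the 1 higher call became 5 with library-size scaling alone. Polycomb, trithorax and histone methyltransferase genes had 8 of 42 higher and 9 lower (median 0.02). Of the polycomb list, the 8 higher calls became 5 without snaR-A replicate 2 and 16 with library-size scaling alone. The 9 lower calls became 3 with library-size scaling alone and 5 without snaR-A replicate 2 or scramble replicate 1 or with all 12 HEK293T libraries in 1 fit. EZH1, a catalytic subunit of the polycomb methyltransferase, measured 55.4, 42.6 and 57.1 CPM with scramble and 33.5, 36.1 and 39.7 CPM with snaR-A (-0.50 ± 0.11, adjusted p = 0.00779), its paralog EZH2 stood at 0.23, CBX7 was lower (-0.47 ± 0.08) and the demethylase gene KDM6A higher (0.37 ± 0.05). One-carbon, purine and pyrimidine synthesis had 3 of 27 higher and 5 lower (median 0.01). Of the nucleotide synthesis list, the 3 higher calls became 8 with library-size scaling alone. The 5 lower calls became 3 without scramble replicate 1 or with library-size scaling alone and 8 without scramble replicate 3. UMPS, which completes UMP synthesis, measured 54.3, 58.1 and 56.1 CPM with scramble and 73.1, 80.7 and 81.8 CPM with snaR-A (0.48 ± 0.05, adjusted p = 0.000527), and the phosphoribosyl pyrophosphate synthetase genes PRPS2 (-0.39 ± 0.06) and PRPS1 (-0.36 ± 0.06) were called lower. Tubulins and actin cytoskeleton genes had 3 of 36 higher and 13 lower (median -0.14). Of the cytoskeleton list, the 3 higher calls became 1 without snaR-A replicate 2, with all 12 HEK293T libraries in 1 fit or with all HEK293T libraries but eGFP replicate 3 in 1 fit and 7 with library-size scaling alone. The 13 lower calls became 3 with library-size scaling alone, 5 without snaR-A replicate 2, 6 without scramble replicate 1 and 8 without snaR-A replicate 3. FLNA, an actin crosslinker, measured 499, 455 and 495 CPM with scramble and 418, 359.6 and 363 CPM with snaR-A (-0.35 ± 0.07, adjusted p = 0.00578), the microtubule destabilizer gene STMN1 had -0.34 ± 0.05, and MYH10 (-0.31 ± 0.08) lost its call with library-size scaling alone and with all 12 libraries in 1 fit. ACTB stood at -0.02.

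The marker genes of HEK293T themselves were not constant. Of the 6 that were members and that stood over 2 times above the A549 scramble mean, 3 were called lower (NEFM, NEFL and HOXA10) and the other 3 were not called. Of the 3 members that do not mark HEK293T here, CDH2 (-0.19) and SALL4 (-0.36) were called lower and INA (0.22) higher. NEFM, the medium neurofilament chain, measured 461, 441 and 419 CPM with scramble and 245, 192 and 212 CPM with snaR-A (log2 fold change -1.02, adjusted p = 0.000267), and was the most abundant of the list. The light chain gene NEFL had -0.46 and HOXA10 -0.15, while LIN28B (-0.13), PAX2 (-0.07) and HOXD10 (-0.18) were not called. As shares of the library total, without TMM scaling, the 11 markers summed to 1052, 1042 and 1006 CPM with scramble and 829.8, 762 and 771 CPM with snaR-A, and their part in the other results was not tested.

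**Figure D4:**
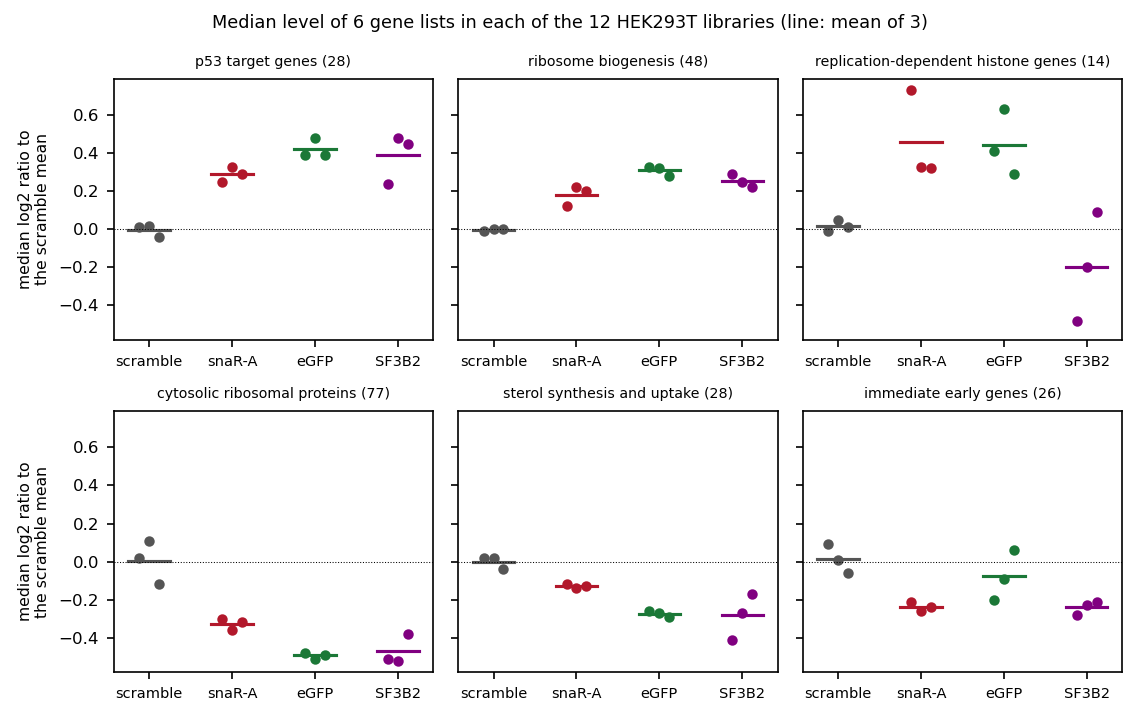
Median log2 ratio to the mean of the 3 scramble libraries of 6 gene lists in each of the 12 HEK293T libraries (points), with the mean of 3 as a line. Ribosomal protein medians lie between -0.36 and -0.30 with snaR-A and lower with eGFP and SF3B2, and histone medians of the SF3B2 libraries lie apart from those of snaR-A and eGFP.

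In A549 cells the same plasmids gave few differences. One A549 snaR-A library, replicate 3, carries fields naming HEK293T as its cell line, while its title, genotype and treatment name A549. It was kept in A549, and its A549 markers summed to 18934 CPM and its HEK293T markers to 261 CPM, within the ranges of the other 5 snaR-A and scramble libraries of A549 (16682 to 20263 CPM and 259.8 to 283 CPM). Of 21662 genes tested in A549, 4 were called by edgeR's quasi-likelihood test and 1329 had an unadjusted p under 0.05. Of 13084 HEK293T members tested there, 2 were called and the median log2 fold change was -0.004. The list medians in A549 were 0.02 for cytosolic ribosomal proteins, -0.05 for ribosome biogenesis, 0.11 for p53 targets and -0.30 for mitochondrially encoded mRNAs.

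An interaction term over the 12 snaR-A and scramble libraries tested for a difference between the lines. Of 13362 members, 2225 (16.7%) had an adjusted p below 0.05 for the difference, and 1833 without the A549 library whose fields conflict. Over all 24784 genes tested the count was 2831, and it fell to 1262 without HEK293T snaR-A replicate 2, 1582 without HEK293T snaR-A replicate 3, 1513 without HEK293T scramble replicate 1, 1732 without A549 snaR-A replicate 1 and 1719 without A549 snaR-A replicate 2, and rose to 4268 without A549 scramble replicate 3. Within lists, the difference was called for 29 of 77 cytosolic ribosomal proteins, 23 of 48 ribosome biogenesis factors and 8 of 28 p53 targets. POLR3C changed by 0.85 on the log2 scale in HEK293T and by -0.09 in A549, a difference of 0.95 ± 0.07 (SE, adjusted p = 7e-05, edgeR). UTP14A had 0.73 and -0.07, a difference of 0.81 (adjusted p = 0.000351). HES1 had -0.77 and 0.15, a difference of -0.91 (adjusted p = 0.0011). In these 3 genes the HEK293T change had no counterpart of its size in A549. The difference was not called for 32 of the 112 named genes, among them H4C14, at 1.06 in HEK293T and 0.91 in A549 (difference 0.16, adjusted p = 0.735), with the uncertainty from shared sequence given above. Transfection efficiency and the level of plasmid-borne snaR-A in each line were not analysed here.

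**Figure D5:**
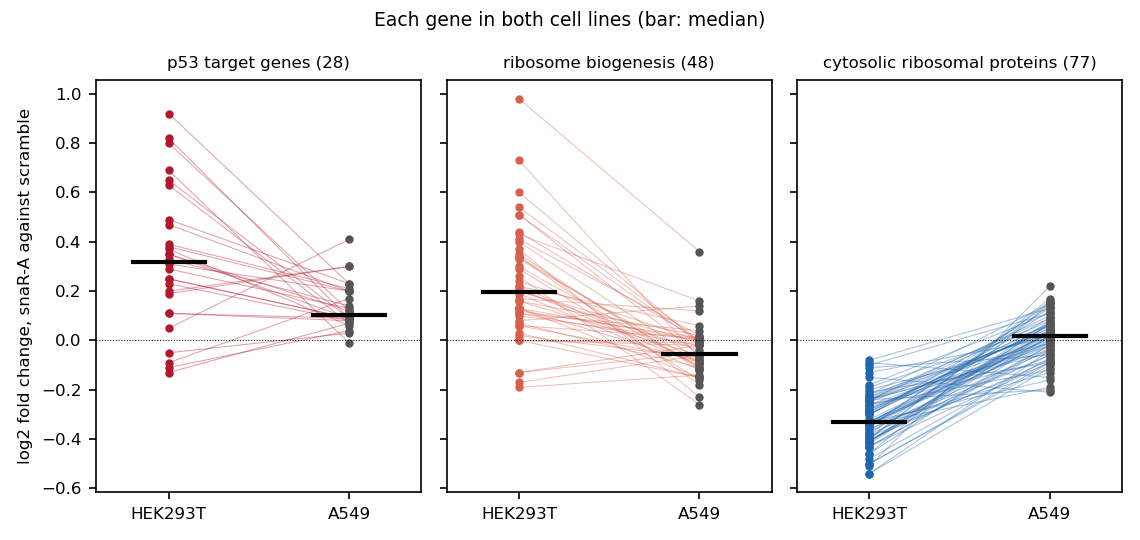
Log2 fold change of snaR-A over scramble (vertical axis) of each member of 3 gene lists in HEK293T and in A549, with a line joining the points of a gene and a bar at each median. Medians of p53 targets, ribosome biogenesis factors and cytosolic ribosomal proteins are 0.32, 0.20 and -0.33 in HEK293T and 0.11, -0.05 and 0.02 in A549.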

How the data were processed

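Estimated counts per gene were deposited by the authors for 24 libraries in 1 table of 60236 genes, and 50.96% of the values are not whole. The study's methods describe rRNA depletion, poly(A) selection and stranded libraries for its siRNA-treated HEK293T cells. These steps are taken here to hold for the plasmid libraries as well. Per the same methods, all libraries were sequenced for 121 cycles, and the 3 biological replicates of genomic experiments were processed on the same day. The submitters' processing notes name Trim Galore, Salmon and hg38. The transcriptome release and the tool that summed transcripts to genes are not given in the sources used here. Because Salmon divides reads among similar transcripts, genes with near-identical copies are uncertain.

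Counts were rounded. Genes without a symbol held 2.529% of them and were kept in the tests. The 3 snaR-A and 3 scramble HEK293T libraries were compared with edgeR 4.0.16 in R 4.3.3 (filterByExpr, TMM, quasi-likelihood F-test, two-sided, Benjamini-Hochberg adjustment over all 22667 genes tested). An adjusted p below 0.05 is named called. Members have a mean of at least 2 CPM of the library total, and levels printed for genes are CPM scaled by TMM factors. Cell lines were compared by an interaction term over 12 libraries, and A549 alone by the same test. The procedure was tested on simulated data. Alternatives were edgeR's exact test, DESeq2 1.42.0, RLE or library-size scaling alone, other count filters, all 12 HEK293T libraries in 1 fit, a replicate block and leaving out each library. A fit of the HEK293T libraries without eGFP replicate 3 was added after seeing the data.

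Named genes were the 12 highest and 12 lowest fold changes among called members whose groups did not overlap, with a symbol, outside the lists set aside (interferon, proliferation, epithelial-mesenchymal transition and hypoxia), the readthrough, NPIP and SMG1P genes, and with under 50% of 31-base words shared with other genes. Added to these were up to 3 called, non-overlapping members of each list with the largest absolute fold change. A few genes that these rules name are not reported here, and they remain in every fit and list count. Members and lists were chosen with earlier results of these data known, so they are not independent of them. Members named beside them as examples of a list were chosen after their values were seen. Positions are those of GENCODE 44 (hg38), and promoter windows and SNAR-A genes those of RefSeq (GRCh38.p14). The table of estimated counts was the only data used, and the 4 lists set aside are not described. List medians per library used log2 of CPM plus 0.5.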

Additional observations from a re-analysis of the deposited data

Results flagged for a closer look

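For 80 of the 112 named genes, the effect of snaR-A on expression differed between HEK293T and A549 by edgeR's interaction test (adjusted p below 0.05), against 2225 (16.7%) of the 13362 members. The named genes were chosen by their change in the same HEK293T libraries, which favours a difference, so the larger share is no result about them. The values below are the log2 fold change in HEK293T less that in A549, positive for 42 genes and negative for 38. None of the 79 tested in A549 on its own was called there by edgeR's quasi-likelihood test. PCK1 had too few counts in A549 for that test (0.0268 to 0.0924 CPM), so its value rests on the interaction fit over both lines (-2.21 ± 0.65, SE, adjusted p = 0.0488). Without the A549 snaR-A library whose label fields conflict, 74 of the 80 had an adjusted p below 0.05, without HEK293T snaR-A replicate 2 there were 63, with DESeq2 80 and with library-size scaling alone 74. The A549 and HEK293T libraries may differ in transfection, which was not tested.

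Among the genes named as highest, the difference was 1.76 for CASS4, 1.70 for C3orf62, 1.41 for ZNF225-AS1, 1.31 for H3C6, 1.17 for EFCAB6, 1.32 for BEST1, 0.98 for PLA2G4C, 1.43 for INHBE, 0.89 for ZNF79 and 1.14 for H2AC6. Among those named as lowest it was -2.21 for PCK1, -1.41 for SAT1, -1.64 for C11orf96, -1.44 for TCIM, -1.20 for MYO15B, -1.14 for FMN1, -1.19 for LINC00173, -1.15 for CXCR4, -1.09 for ADAMTS1 and -0.97 for ZNF710-AS1. Several were scarce in the A549 snaR-A and scramble libraries: C11orf96 (0.0767 to 0.118 CPM), CASS4 (0.195 to 0.502), CXCR4 (0.285 to 0.425) and ADAMTS1 (0.459 to 0.660). EFCAB6, INHBE, ZNF225-AS1, LINC00173 and ZNF710-AS1 were also below 2 CPM in each of these. CASS4 had a positive log2 fold change in A549 too (0.84 ± 0.19, not called).

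For genes of translation and ribosome assembly, the difference was -0.48 for RPL22, -0.72 for RPL41, 0.59 for EIF5, -0.62 for EIF4A2, -0.44 for EEF1A1, 0.81 for UTP14A, 0.62 for RRP9, 0.61 for AIMP2, 0.51 for CARS1 and 0.49 for WARS1. For genes of RNA polymerase III and of RNA processing, the difference was 0.95 for POLR3C, 0.42 for PTBP2, 0.52 for SRSF6, 0.57 for HNRNPM, 0.36 for USP39, 0.44 for SMG6, 0.43 for DHX34, -0.31 for TIAL1, 0.95 for SNHG15, 0.64 for SNHG17 and -0.53 for SNHG3. For p53 targets, immediate early genes and Notch genes, the difference was 0.70 for AEN, 0.75 for PHLDA3, 0.70 for PLK3, -0.49 for MYC, -0.75 for FOS, -0.65 for JUN, -0.91 for HES1 and -0.56 for JAG1. For genes of lipid, nucleotide, polyamine and amino acid metabolism, the difference was -0.71 for MSMO1, -0.73 for IDI1, -0.63 for INSIG1, -1.06 for HILPDA, -0.32 for ACSL4, 0.40 for UMPS, -0.37 for PRPS2, -0.39 for DHPS, -0.95 for ARRDC4, -0.50 for SESN3, 0.60 for CHAC1 and -0.47 for VLDLR.

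For mitochondrial genes, the difference was -0.54 for NDUFA1, -0.48 for COX7B, 0.69 for MRPL1 and 0.47 for MRPL15. For genes of protein quality control and lysosomes, the difference was 0.33 for PSMD11, 0.40 for PSMC5, 0.38 for ADRM1, 0.55 for DNAJA1, 0.48 for HSPH1, -0.54 for WIPI1, 0.58 for TECPR1 and 0.45 for ATP6V0A1. For chromatin, zinc finger and cytoskeleton genes, the difference was -0.22 for RBBP7, -0.61 for EZH1, -0.62 for CBX7, 0.28 for KDM6A, 1.10 for ZNF425, 0.90 for ZNF416 and -0.35 for STMN1.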

How the results depend on the processing

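The log2 fold change of no named gene changed sign under any alternative tried, but the split of the calls did. Without scramble replicate 3, mitochondrial ribosomal proteins had 9 members called higher and 19 lower, against 14 and 8 with all libraries. With library-size scaling alone, 6116 of all tested genes were called higher and 2275 lower, and 4462 and 1858 of the members, and this scaling shifted log2 fold changes up by a median of 0.10, as its construction implies, since the TMM factors were 0.957 to 0.977 for scramble and 1.026 to 1.040 for snaR-A. It changed the sign of the median log2 fold change of 9 lists: autophagy, core snRNP, endoplasmic reticulum, fatty acid, lysosomal, NuRD, polyamine, stress granule and translation factor genes. Requiring a log2 fold change above 1 or below -1 as well left 896 genes higher and 179 lower, or 63 and 29 members. DESeq2 called 4406 genes for the interaction. Leaving out 1 library gave 2492 to 3925 genes higher and 2639 to 4393 lower, 1653 to 2644 members higher and 2366 to 3869 lower, and 1262 to 4268 genes for the interaction, with the lowest counts without snaR-A replicate 2 of HEK293T. The causes of the DESeq2 and single-library differences were not tested. Of 112 named genes, library-size scaling alone lost the call of 3 and all 12 HEK293T libraries in 1 fit lost 8, of which 7 were also lost when eGFP replicate 3 was left out of that fit (an alternative chosen after seeing the data, under which 1754 members were called higher and 2717 lower), and leaving out 1 library lost between 0 and 5. Same-numbered replicates did not deviate together (correlations of -0.024, -0.051 and 0.051), so no pairing by number was detected. With 3 replicates per group, this check cannot exclude one. With the replicate number as a block, 3665 genes were called higher and 3673 lower, 2447 and 3150 of the members and 2315 for the interaction, and no named gene lost its call. The floor of 3 counts lies at 0.0143 CPM or below, far under the 2 CPM limit of the members.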

Other observations

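Some genes were passed over in naming because at least 50% of their 31-base words occur in other genes, among them SDHAP1 (98.6% shared, log2 fold change 1.27) and RNASE4 (69.5%, -0.86).

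The annotated transcripts of protein-coding members called higher, called lower and not called had median lengths of 3505, 3561 and 3557 bases, median exon counts of 10, 8 and 10, and median GC contents of 48.2%, 47.1% and 47.8%.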
